A study of Mus musculus with 8 samples.

Results

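A set of 36 genes of DNA replication and mitosis was followed in the adult mouse left ventricle. The members came from a given list of gene symbols, and all 36 were found among the 55487 gene identifiers of the read counts. They comprise 24 genes that act in mitosis, 9 that copy DNA and 3 that act at the entry into DNA synthesis. The ventricles came from 8 C57BL/6 mice at 12 weeks of age. In one group of 4 the genotype label is wild-type and the title is NLC, an abbreviation the labels do not spell out. The other 4 are titled CM-ADGRF5-KO, written KO here, and carry the genotype label GPR116-/- (myocyte-specific). GPR116 is another name of ADGRF5, an adhesion G protein-coupled receptor. In each group replicates 1 and 2 were male and replicates 3 and 4 female, and the design text describes all of them as biological replicates. The promoter or Cre line behind the deletion is not given in the sources used here.

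Dividing cells switch these genes on in waves. Before DNA synthesis the E-type cyclins and the transcription factor E2F1 start a program that supplies the MCM2-7 helicase, the sliding clamp PCNA and the enzymes that make deoxynucleotides. Later the A-type and B-type cyclins with their kinase CDK1, the Aurora and Polo kinases, kinetochore proteins and spindle motors drive chromosome segregation and cytokinesis. Heart muscle cells largely leave the cell cycle soon after birth, so dividing cells in an adult ventricle are rare and are mostly endothelial cells, fibroblasts, pericytes and blood-derived cells. In RNA from whole tissue, fewer dividing cells and less RNA per dividing cell cannot be told apart.

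The libraries held 25.33 to 39.62 M reads assigned to genes (M, mega). Adgrf5 itself stood at 218 to 257 counts per M reads (CPM) in NLC and 203 to 240 CPM in KO, a difference of -0.05 on the log2 scale (SE 0.0754, edgeR adjusted p = 0.782). Endothelial cells express it too, so its abundance in the tissue as a whole is no check of the labels. The heart muscle markers Myh6, Tnnt2, Actc1, Ryr2 and Nppa summed to 47499 to 61511 CPM in the 8 libraries. One library, NLC 3 (female), stood apart from the other 7 in the cell cycle genes, and the comparison of the groups is therefore given with and without it.

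The mitotic genes were scarce in these ventricles, and in their means over the 8 libraries Pcna and the helicase genes exceeded all of them. To compare genes with each other, CPM were divided by exon length in kilobases (RPKM). The members had a median level of 0.401 RPKM, against 3.01 RPKM for all 14695 tested genes, and 35 of the 36 lay below that median. Pcna, the sliding clamp that holds DNA polymerase on its template and also serves in DNA repair, was the exception at 11.1 ± 0.742 RPKM (SD, n = 8). It was followed by the helicase subunits Mcm7 at 2.64 ± 0.298, Mcm4 at 2.30 ± 0.259 and Mcm6 at 2.27 ± 0.287 RPKM. Mcm4 and Mcm6 differed by less than their SDs, and the ranges of all 3 over the libraries overlapped. The 6 helicase subunits ranged from 1.40 to 2.64 RPKM, at percentiles of 33.0 (Mcm5) to 46.8 (Mcm7) among all tested genes, not far below the median. The highest mitotic gene was Cenpf, which encodes a large kinetochore and nuclear matrix protein, at 0.977 ± 0.434 RPKM, with up to 1.91 RPKM in KO 4. Mki67, the gene of the proliferation antigen Ki-67, stood at 0.470 ± 0.354 RPKM and Top2a, the topoisomerase that untangles sister chromatids, at 0.320 ± 0.211 RPKM. Ccnb1 (cyclin B1), Cenpe (a kinetochore motor), Hmmr (a spindle assembly factor) and Bub1 (a checkpoint kinase) were the lowest, between 0.0819 and 0.114 RPKM. With the longest transcript in place of the union of exons, the levels of 10 members moved by more than their SD, while Pcna and Mcm7 remained first and second. Mcm2 moved from 1.42 RPKM (rank 6 of the members) to 2.83 RPKM (rank 3), so the order of the helicase subunits depends on the length used.

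**Figure D1:**
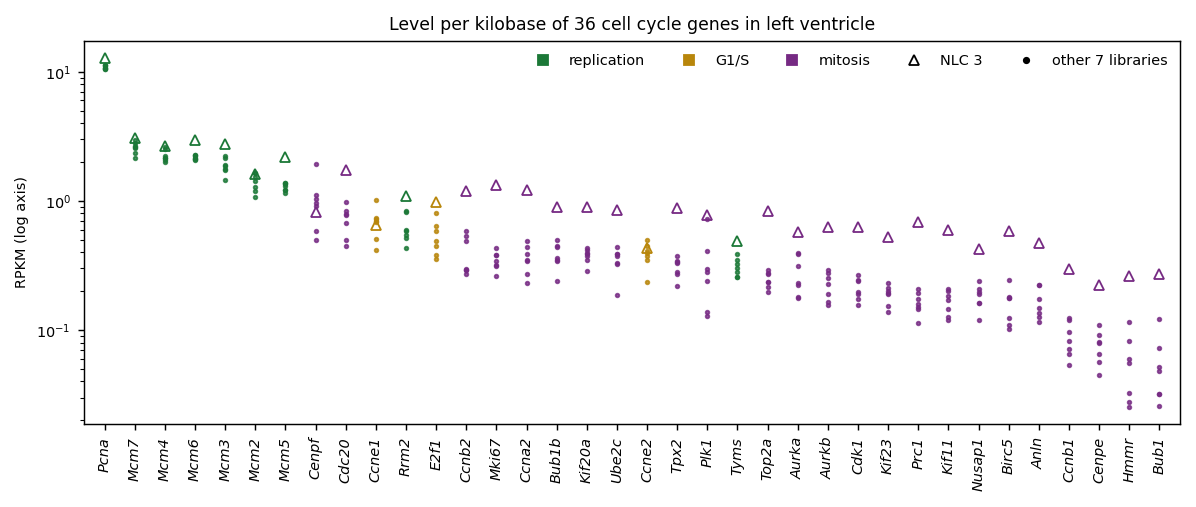
Level per kilobase (RPKM, log axis) of the 36 genes in each of the 8 left ventricles, ordered by mean level and coloured by function; triangles are NLC 3 and dots the other 7 libraries. Pcna lies at 11.1 RPKM on average, the helicase subunits between 1.40 and 2.64 RPKM, and the triangle tops its column for 32 genes.

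The counts behind these levels were small for several members. Mki67 had 75 to 399 reads per library, Cdk1 22 to 91 and Cenpe 11 to 57. Bub1 had 3 to 35 reads and Hmmr 4 to 42, and these 2 did not pass the filter on low counts, so they have levels but no test. The other 34 were tested. A count of 0 would allow up to 0.0793 to 0.122 CPM, depending on the library (3 reads, counting error only).

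In 32 of the 36 genes NLC 3 was the highest of the 8 libraries. Among all tested genes this library was highest in 12.5%. It exceeded the mean of the other 7 libraries at least 2-fold in 23 members (1.12% of all tested genes did so), and it was at least 1.5 times the highest of the other 7 in 22 members (1.05% of all). The median ratio of NLC 3 to the mean of the other 7 was 2.43 over the members and 0.992 over all tested genes. Bub1 had the highest ratio at 4.94, followed by Hmmr at 4.59 and Prc1, which bundles microtubules at the spindle midzone, at 4.201. The exceptions were Cenpf and the cyclin E1 gene Ccne1, both highest in KO 4, the cyclin E2 gene Ccne2, highest in NLC 4, and the helicase gene Mcm2, highest in KO 1.

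The ratio of NLC 3 to the other libraries varied with the roles of the genes. Mki67 and Top2a were 3.86 and 3.39 times the mean of the other 7 libraries. The 7 mitotic cyclins and kinases were 2.10 to 3.38 times that mean, and the 8 spindle, midzone and cleavage furrow genes 2.32 to 4.59 times. The helicase subunits reached 1.16 to 1.70 times, Pcna 1.17 times, and Rrm2 and Tyms, which supply deoxynucleotides, 1.77 and 1.58 times. These ratios start from unlike levels, so a low ratio need not be a small rise in CPM. Pcna stood at 30.6 CPM in NLC 3 and at a mean of 26.0 CPM in the other 7 libraries. The same values were 13.5 and 3.48 CPM for Mki67 and 3.07 and 1.04 CPM for Cdk1. The mean over members of log2 CPM, each member centred on its 8 libraries, was 1.00 in NLC 3 and between -0.37 (KO 3) and 0.0038 (NLC 2) in the other 7. For the 24 mitosis genes it was 1.31, and for the 9 replication genes 0.41.

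**Figure D2:**
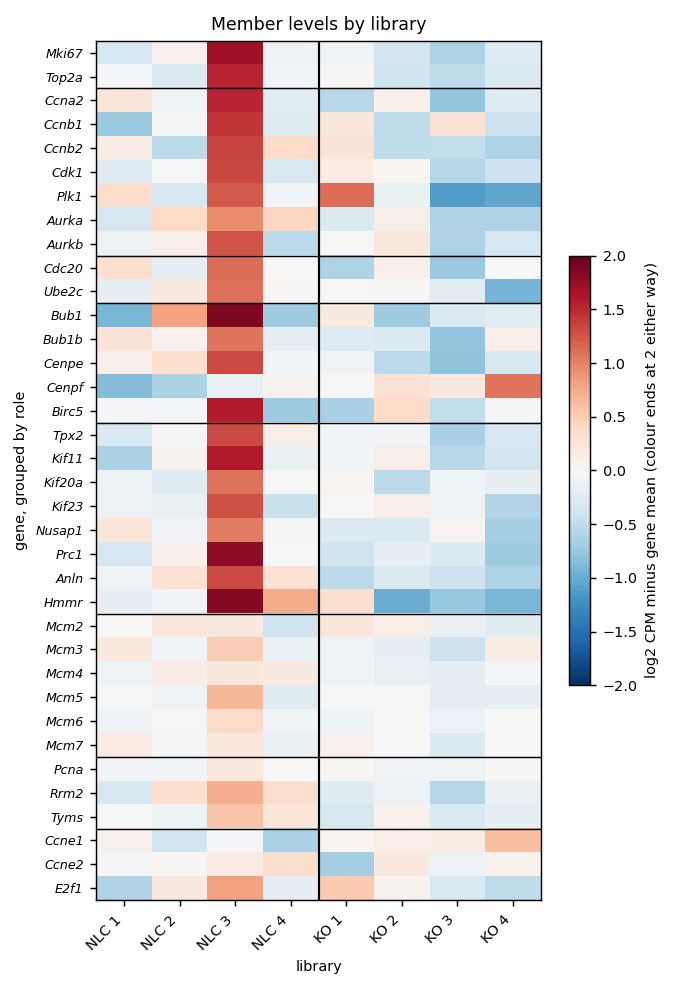
Log2 CPM of each of the 36 genes minus its mean over the 8 libraries, with genes grouped by role (horizontal lines) and NLC libraries left of the vertical line, KO libraries right of it. The NLC 3 column is red for nearly all mitosis genes and paler for the helicase genes, whereas Cenpf is highest in KO 4.

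Shared variation among the members rested mainly on that library. Over 8 libraries the median Pearson correlation of log2 CPM was 0.71 across the 630 pairs of members, and it was 0.18 over the 7 libraries without NLC 3. Pairs of all tested genes between 0.3 and 30 CPM had medians of 0.0069 and 0.0061. For the 23 mitosis genes other than Cenpf the median went from 0.79 to 0.23, and for the 9 replication genes from 0.61 to 0.15. The pairs share libraries and depth, and these correlations are descriptions. Cenpf went the other way: its correlation was negative with 32 of the 35 other members over 8 libraries and with 28 over 7, and its highest was 0.54, with Ccne1. Without NLC 3 the highest library varied, being NLC 4 in 9 members (16.8% of all tested genes), KO 1 in 8 (22.8%), NLC 1 in 6 (8.24%), NLC 2 in 6 (19.2%), KO 2 in 4 (11.6%), KO 4 in 2 (10.9%) and KO 3 in 1 (10.4%).

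Among 12037 further genes of at least 1 CPM, those most like the mean of the members over 8 libraries included Kif22, a chromokinesin (r = 0.976), the class I major histocompatibility gene H2-Q4 (0.967) and Racgap1, a subunit of the central spindle complex (0.961). H2-Q4 stood at 91.6 CPM in NLC 3 and at 39.6 to 53.0 CPM in the others. Without NLC 3 the 4 most alike were Traf3ip1 (0.995), Tspan14 (0.987), Pcif1 (0.976) and Zscan25 (0.964), a set that shares no gene with the first. In NLC 3 Traf3ip1 stood at 9.28 CPM (8.64 to 10.1 in the others) and Tspan14 at 19.03 CPM (13.4 to 17.7).

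Summed levels of 15 lists of cell type markers in NLC 3 lay between 0.254 and 1.32 times the mean of the other 7 libraries. The endothelial markers, of which 1 of 5 was highest in NLC 3, summed to 844 CPM there and to 650 to 864 CPM in the others, or 1.15 times their mean. The sum of pericyte and smooth muscle markers was 1.11 times the mean of the others, that of fibroblasts 0.947 times, of macrophages 0.949 times and of cardiomyocytes 0.925 times. T and NK cell markers summed to 1.25 CPM in NLC 3, against 0.653 to 1.30 CPM in the others. Of these 7 markers, 2 were highest in NLC 3. B cell markers summed to 3.47 against 1.86 to 5.21 CPM. Plasma cell markers summed to 5.50 against 6.73 to 9.23 CPM, most of it Sdc1 (4.76 CPM in NLC 3). Erythroid markers summed to 207 CPM against 53.9 to 258 CPM, and neutrophil and myeloid markers to 0.877 against 0.752 to 6.80 CPM. Immature thymocyte markers summed to 1.55 against 0.597 to 1.94 CPM, nearly all of it Cd4 (1.52 CPM), and germinal centre markers to 8.40 against 5.81 to 9.86 CPM, nearly all of it S1pr2 (8.33 CPM). In NLC 3 the thymocyte genes Dntt, Rag1, Rag2 and Ptcra, the germinal centre gene Rgs13, and the myeloid progenitor genes Elane, Mpo and Camp were at 0 reads. Of these, Rag2, Rgs13 and Mpo were at 0 in all 8 libraries, and the other 5 were at 0 in several further libraries and at most at 0.106 CPM. Atrial markers were at 382 CPM in NLC 3, and highest in NLC 4 at 6003 CPM. Nearly all of the sum in NLC 3 was Nppa (379 CPM), which is also among the heart muscle markers. Myl7, Myl4 and Sln stood at 0.371, 2.23 and 0.0337 CPM in NLC 3. KO 1 was similarly low, at 0.265, 3.20 and 0.0264 CPM, and NLC 4 was at 983, 1020 and 222 CPM. NLC 3 had 28.35 M gene reads, within the range of the others, and 17.4% of mitochondrially encoded reads, next to 17.5% to 21.9% in the others. Whether any cell type accounts for the level of the cell cycle genes in NLC 3 was not tested.

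**Figure D3:**
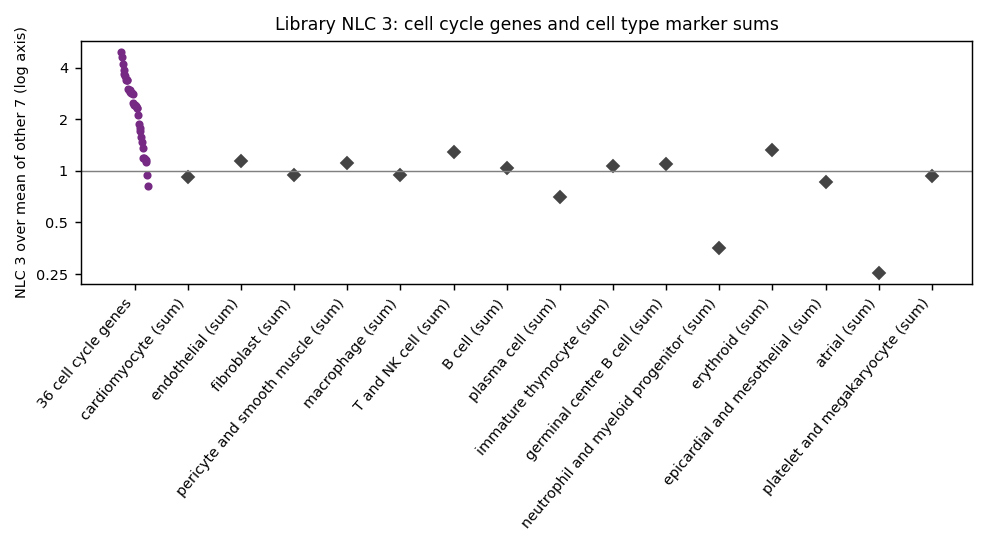
Level in NLC 3 divided by the mean of the other 7 libraries (log axis) for each of the 36 cell cycle genes and for the summed CPM of 15 lists of cell type markers. The genes reach 4.94 with a median of 2.43, whereas the marker sums lie between 0.254 (atrial) and 1.32 (erythroid).

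The promoters of these genes share short elements that are known to bind cell cycle repressor and activator complexes. RefSeq windows (GRCm38.p6) from 250 bases before to 50 after the start of transcription were found for 30 members, all but Aurkb, Tpx2, Ccna2, Kif20a, Mcm4 and Ccne2. Of the 32 windows of these members, 20 had a start that opens or lies in a GENCODE transcript. For the other windows the start was not matched to one, so an absence of elements there is less certain. Both strands were searched for the cell cycle homology region (CHR; TTTGAA or TTCGAA), for E2F sites (TTCCCGC, the variant TTCGCGC, the variant TTGCCGC and the variant TTGGCGC) and for the CCAAT box (CCAAT). A gene was counted if any of its windows held a match, whereas the background is a share of single windows. Mcm7 and Prc1 were the members with more than a single window. The CHR was present in 16 of 20 mitosis genes and 2 of 8 replication genes, compared with 19.2% of all 32851 windows. E2F sites were present in 4 of 20 mitosis genes, 5 of 8 replication genes and 9.57% of windows, and the CCAAT box in 17 of 20, 7 of 8 and 37.4%. A CHR together with a CCAAT box was found in 15 of 20 mitosis genes, 2 of 8 replication genes and 7.52% of windows. None of these elements was found in the windows of Ccne1 and E2f1, nor in those of Birc5, Nusap1 and Tyms. The E2f1 window lies inside the gene, downstream of its start as annotated in GENCODE M21. The absence of elements there therefore says little about its promoter. TTGGCGC and the CCAAT box can overlap by a few bases. A match is a run of letters and not evidence of binding.

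The 120 bases before the start are shown for 3 mitosis genes that were 2.96 to 3.86 times the other libraries in NLC 3, for Cenpf, which was not, and for Mcm6 and Pcna, which were 1.36 and 1.17 times the others. All lie on the minus strand and are written 5′ to 3′, with every matched element (CHR, E2F site or CCAAT box, in either orientation) in capitals. The Mki67 window is chr7:135716380-135716499, the Top2a window chr11:99024190-99024309, the Cdk1 window chr10:69352913-69353032, the Cenpf window chr1:189688087-189688206, the Mcm6 window chr1:128359706-128359825 and the Pcna window chr2:132253181-132253300.
Mki67: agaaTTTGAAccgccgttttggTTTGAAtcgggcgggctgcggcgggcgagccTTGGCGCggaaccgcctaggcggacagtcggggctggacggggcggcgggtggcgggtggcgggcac
Top2a: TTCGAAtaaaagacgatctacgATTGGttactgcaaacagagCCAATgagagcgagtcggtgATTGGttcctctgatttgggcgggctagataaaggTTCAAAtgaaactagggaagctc
Cdk1: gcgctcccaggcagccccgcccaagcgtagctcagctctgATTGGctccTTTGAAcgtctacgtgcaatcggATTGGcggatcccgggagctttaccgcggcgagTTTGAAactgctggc
Cenpf: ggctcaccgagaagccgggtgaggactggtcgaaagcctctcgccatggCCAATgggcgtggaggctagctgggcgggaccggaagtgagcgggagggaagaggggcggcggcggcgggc
Mcm6: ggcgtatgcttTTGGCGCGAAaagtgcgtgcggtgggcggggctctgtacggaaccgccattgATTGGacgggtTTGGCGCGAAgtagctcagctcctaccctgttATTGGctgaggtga
Pcna: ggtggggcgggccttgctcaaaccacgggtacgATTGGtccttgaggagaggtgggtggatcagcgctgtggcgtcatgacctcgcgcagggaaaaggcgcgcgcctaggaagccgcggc
Mki67, Top2a and Cdk1 each hold 2 CHR matches in this stretch. Cenpf holds 1 CCAAT box here, and its CHR match lies after the start. Mcm6 holds 4 E2F matches, which form 2 overlapping pairs, and 2 CCAAT boxes, and Pcna holds 1 CCAAT box.

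The comparison of KO with NLC asks whether the loss of ADGRF5 in cardiomyocytes moved these genes. No member passed: 0 of 34 had an edgeR adjusted p under 0.05, with all 8 libraries or without NLC 3, where 0.102% and 0.337% of all tested genes did. At an unadjusted p under 0.05 there were 6 members with all libraries, against 11.9% of all tested genes. Of these, 5 were lower in KO (Aurka, Cenpe, Anln, Mcm4 and Rrm2; 6.18% of all) and 1 higher (Cenpf; 5.77% of all). Without NLC 3 there were 2, Anln and Cenpf, against 18.0%. DESeq2 called 1 member, Cenpf, both with all libraries (27 members had an adjusted p; 1.13% of all genes with one were called) and without NLC 3 (26 members; 2.9% of all). With all libraries limma voom called 0 (0.0885% of all).

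Most members had lower means in KO when NLC 3 was included. With 8 libraries 32 of 34 members had a negative log2 fold change (51.0% of all tested genes), with a median of -0.53 against -0.0050 over all. Without NLC 3 the count was 21 of 34 (50.2% of all) and the median -0.13 against -0.0010. The groups did not overlap for 2 members, Cenpe and Anln, both lower in KO, with 8 libraries (3.03% of all tested genes were separated in that direction) and also without NLC 3 (5.78%). Bub1 and Hmmr, which were not tested, were also highest in NLC 3.

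**Figure D4:**
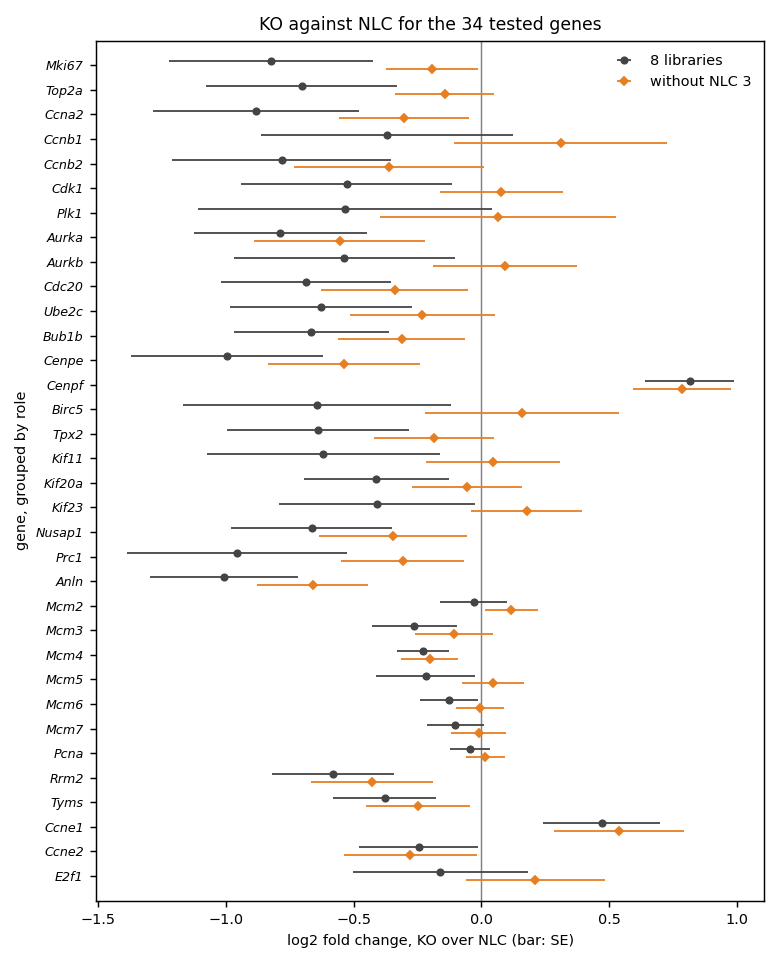
Log2 fold change of KO over NLC with its SE for the 34 tested genes, grouped by role, from all 8 libraries (grey circles) and without NLC 3 (orange diamonds). The median is -0.53 with 8 libraries and -0.13 without NLC 3, and Cenpf stays near 0.8 in both.

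Mki67 stood at 3.19, 4.36, 13.5 and 3.80 CPM in NLC 1 to 4 and at 3.83, 3.15, 2.63 and 3.42 CPM in KO 1 to 4. NLC 3 alone was high, and the other 3 NLC libraries overlapped with KO. The means were 6.20 ± 4.86 and 3.26 ± 0.504 CPM (SD, n = 4 each), with a log2 fold change of -0.82 (SE 0.400, edgeR adjusted p = 0.435) and, without NLC 3, of -0.20 (SE 0.180, adjusted p = 0.580). Top2a had the same shape, at 2.51, 2.12, 7.52 and 2.46 CPM in NLC and 2.62, 1.94, 1.79 and 2.10 CPM in KO. KO 1 lay above the 3 lower NLC libraries. Its edgeR log2 fold change was -0.70 (SE 0.374, adjusted p = 0.461), and -0.14 (SE 0.195, adjusted p = 0.721) without NLC 3.

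Among the mitotic cyclins and kinases, Cdk1, the kinase that drives entry into mitosis, was measured at 0.975, 1.18, 3.07 and 0.934 CPM in NLC and at 1.32, 1.21, 0.772 and 0.864 CPM in KO. NLC 3 was the highest library and the groups overlapped, and the log2 fold change went from -0.53 (SE 0.414) to 0.08 (SE 0.241). Aurka, the kinase of centrosomes and spindle poles, stood at 0.562, 0.979, 1.45 and 1.00 CPM in NLC and 0.582, 0.795, 0.456 and 0.451 CPM in KO. NLC 1 lay among the KO libraries, while the other 3 NLC libraries lay above all of KO. The edgeR log2 fold change was -0.79 (SE 0.339, adjusted p = 0.405), and -0.55 (SE 0.334, adjusted p = 0.393) without NLC 3. Ccna2 (cyclin A2) and Ccnb2 (cyclin B2) had values of -0.88 and -0.78 with all libraries and -0.30 and -0.36 without NLC 3. Ccnb1, Plk1 (Polo-like kinase 1) and Aurkb (the kinase of the chromosomal passenger complex) went from -0.37, -0.53 and -0.54 to 0.31, 0.06 and 0.09. The median of these 7 genes moved from -0.54 to 0.06.

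The anaphase-promoting complex is switched on by CDC20, and UBE2C hands it ubiquitin. Cdc20 had a log2 fold change of -0.69 (SE 0.333) and Ube2c of -0.63 (SE 0.356), and without NLC 3 of -0.34 and -0.23. Neither passed the test.

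The kinetochore genes had log2 fold changes of either sign, and none passed the test. Cenpf was measured at 7.65, 9.02, 12.6 and 14.7 CPM in NLC and at 14.0, 17.2, 16.01 and 29.5 CPM in KO. NLC 4 lay above KO 1, so the groups overlapped, and KO 4 was the highest library. The means were 11.0 ± 3.25 and 19.2 ± 7.04 CPM, and the edgeR log2 fold change was 0.81 (SE 0.174, unadjusted p = 0.000816, adjusted p = 0.179), or 0.78 (SE 0.192, adjusted p = 0.106) without NLC 3. It was 0.63 without KO 4 and 0.99 without KO 3. Cenpf had the smallest p of all members and ranked 65 among the 14695 tested genes.

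Cenpe, the motor that carries chromosomes to the spindle equator, stood at 0.787, 0.938, 1.92 and 0.692 CPM in NLC and at 0.688, 0.484, 0.386 and 0.564 CPM in KO. All 4 KO libraries lay below NLC, the closest being KO 1 under NLC 4. The edgeR log2 fold change was -0.996 (SE 0.376, adjusted p = 0.354), and -0.54 (SE 0.296, adjusted p = 0.356) without NLC 3. The checkpoint gene Bub1b had -0.67 and -0.31 with and without NLC 3, and Birc5, the survivin subunit of the passenger complex, -0.64 and 0.16. The checkpoint kinase gene Bub1 was at 0.112, 0.530, 1.18 and 0.138 CPM in NLC and 0.138 to 0.317 CPM in KO.

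Of the spindle and cleavage furrow genes, Anln encodes anillin, the scaffold of the contractile ring. It was measured at 1.57, 2.04, 4.25 and 2.04 CPM in NLC and at 1.14, 1.35, 1.23 and 1.05 CPM in KO. Every KO library lay below every NLC library. The means were 2.48 ± 1.203 and 1.19 ± 0.127 CPM, with a log2 fold change of -1.01 (SE 0.291, unadjusted p = 0.00585, edgeR adjusted p = 0.271) and, without NLC 3, of -0.66 (SE 0.217, unadjusted p = 0.0117, adjusted p = 0.177). Prc1 had -0.96 (SE 0.431) with NLC 3 and -0.31 (SE 0.240) without it. Nusap1, which stabilises spindle microtubules, had -0.67 and -0.35, and the spindle assembly factor Tpx2 -0.64 and -0.19. The kinesins Kif11, Kif20a and Kif23, which separate spindle poles or build the midzone, had -0.62, -0.41 and -0.41 with all libraries and 0.05, -0.06 and 0.18 without NLC 3. Hmmr was at 0.2999, 0.326, 1.42 and 0.622 CPM in NLC and 0.138 to 0.450 CPM in KO.

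**Figure D5:**
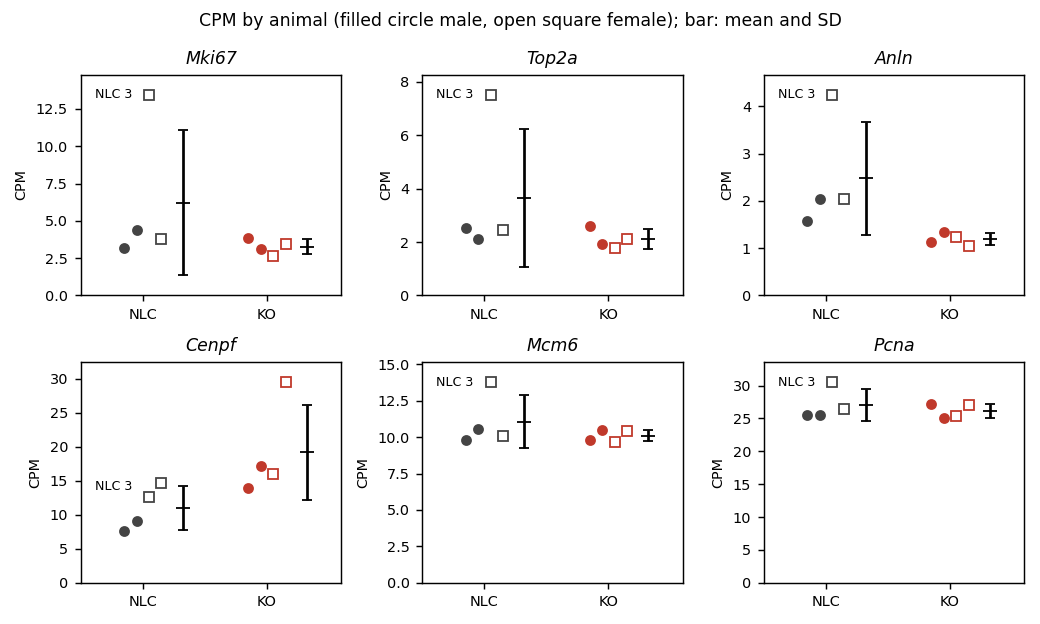
CPM of 6 genes in each animal, by group, with males as filled circles and females as open squares; the horizontal tick and bar give the mean and SD of 4 animals, and all axes start at 0. NLC 3 is the highest NLC animal in 5 panels, KO lies below NLC throughout for Anln, and Cenpf is highest in KO 4 at 29.5 CPM.

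The replicative helicase varied little. Mcm4 stood at 7.72, 9.10, 9.61 and 9.30 CPM in NLC and 7.75, 7.44, 7.20 and 8.04 CPM in KO. NLC 1 lay within the KO range and the other 3 NLC libraries above it. The edgeR log2 fold change was -0.23 (SE 0.100, adjusted p = 0.409), and -0.20 (SE 0.112, adjusted p = 0.356) without NLC 3. Mcm7 was at 13.1, 11.3, 13.5 and 10.5 CPM in NLC and 12.4, 11.6, 9.48 and 11.7 CPM in KO, with overlapping groups and a log2 fold change of -0.10 (SE 0.113), or -0.010 without NLC 3. Mcm2, Mcm3, Mcm5 and Mcm6 had -0.03, -0.26, -0.22 and -0.13, and without NLC 3 0.12, -0.11, 0.05 and -0.0061.

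Pcna was the steadiest member, at 25.5, 25.6, 30.6 and 26.4 CPM in NLC and 27.1, 25.1, 25.3 and 27.0 CPM in KO. Apart from NLC 3 the groups overlapped, and the log2 fold change was -0.04 (2 SE to either side reach from -0.20 to 0.11), or 0.016 without NLC 3. Rrm2, the regulated subunit of ribonucleotide reductase, stood at 1.42, 2.28, 3.04 and 2.32 CPM in NLC and at 1.51, 1.66, 1.19 and 1.62 CPM in KO. As with Mcm4 and Aurka, NLC 1 lay among the KO libraries and the other 3 NLC libraries lay above them. Its edgeR log2 fold change was -0.58 (SE 0.239, adjusted p = 0.382), and -0.43 (SE 0.239, adjusted p = 0.359) without NLC 3. Tyms, thymidylate synthase, had -0.38 and -0.25.

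At the entry into DNA synthesis, Ccne1 was at 1.87, 1.35, 1.72 and 1.11 CPM in NLC and 1.82, 1.94, 1.97 and 2.71 CPM in KO. It was the only member besides Cenpf with a positive log2 fold change over 8 libraries, at 0.47 (SE 0.228, edgeR adjusted p = 0.435), and 0.54 (SE 0.254, adjusted p = 0.293) without NLC 3. NLC 1 lay above KO 1. Ccne2 had -0.25 and -0.28 with and without NLC 3, and E2f1 -0.16 and 0.21.

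Several members share exonic sequence with a gene on the other strand, and the strand setting of the counting is not given in the sources used here, so their counts are less certain. These are Kif20a with Cdc23 (1271 bases), Prc1 with Rccd1 and 6330403N20Rik (911), Ccne2 with Ints8 (609), Ube2c with Tnnc2 (592), Ccna2 with Exosc9 (510), Mcm7 with Cops6 and Ap4m1 (321), Nusap1 with Oip5 (172), Plk1 with Gm44985 (156) and Cdc20 with Elovl1 (53). Cenpf, Anln, Cenpe and Mki67 share none in GENCODE M21 on GRCm38. Cenpf lies at 189640606 to 189688086 on chromosome 1, and Anln at 22332012 to 22389188 on chromosome 9.

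NLC 3 is female, so the sexes were compared as well. Females had the higher fitted level in 30 of 34 members with all libraries and in 10 without NLC 3. The share of all tested genes higher in females is not reported here, so these counts have no background. No member passed in the edgeR test of sex (0.299% of all tested genes did), and 1 had an unadjusted p under 0.05 (12.8% of all). That member was Cenpf, which was higher in females by 0.63 (SE 0.174, edgeR adjusted p = 0.209). DESeq2 called it (adjusted p = 0.0284; 1.59% of all genes with an adjusted p). Without NLC 3 there were 4 members at an unadjusted p under 0.05 (17.5% of all), Cenpf again higher in females and Plk1, Aurkb and Mcm2 lower, and none passed in edgeR (1.19% of all). The difference of the KO effect between females and males passed for 0 members and 0 genes by edgeR (0 members and 15 genes by DESeq2). At an unadjusted p under 0.05 there were 5 members, Ccnb2, Plk1, Tpx2, Kif11 and E2f1, against 7.46% of all. This contrast rests on 2 animals of each sex and genotype, and NLC 3 is 1 of the 2 female NLC animals. A KO effect that differs between the sexes and a high level in NLC 3 alone cannot be told apart here.

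Further genes of the cell cycle were read from 9 lists with 150 members, of which 138 passed the filter. None passed the edgeR test in either direction, with or without NLC 3. At an unadjusted p under 0.05 there were 4 higher (5.77% of all tested genes) and 13 lower (6.18% of all) in KO with all libraries, and 17 in either direction without NLC 3 (18.0% of all). With all libraries the count in either direction was also 17 of 138, beside 11.9% of all. Their median log2 fold change was -0.08, and -0.02 without NLC 3.

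Of the 9 lists, mitotic kinesins and cytokinesis genes had the highest ratio of NLC 3 to the other libraries. All 17 tested genes of that list were highest in NLC 3, at a median of 2.95 times the mean of the other libraries. Their median log2 fold change was -0.59 with NLC 3 and -0.14 without it, and the smallest p belonged to the chromokinesin Kif4 (-1.01, SE 0.347) and the spindle pole gene Aspm (-1.02, SE 0.394). Both were at -0.58 without NLC 3 (SE 0.271 and 0.311). At an unadjusted p under 0.05 this list had 5 genes lower with all libraries (6.18% of all) and 0 in either direction without NLC 3 (18.0% of all). In the kinetochore and checkpoint list, Sgo2a, a protector of centromeric cohesion, had -0.39 (SE 0.133) and Nuf2 of the NDC80 complex -1.36 (SE 0.584; -0.68, SE 0.488, without NLC 3), while the list's median was 0.03. The condensin and cohesin list had 1 gene higher (5.77% of all) and 4 lower (6.18% of all) of 15 at an unadjusted p under 0.05, and 6 in either direction without NLC 3 (18.0% of all). Its smallest p belonged to the cohesin gene Stag1 at -0.35 (SE 0.0844, edgeR adjusted p = 0.212) and the condensin gene Smc2 at -0.61 (SE 0.172), and without NLC 3 these were -0.39 and -0.49.

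Regulators that act upstream of the members were read from 3 lists. Cdkn1a, which encodes the CDK inhibitor p21, had 24.4 ± 7.42 CPM in NLC and 37.5 ± 9.79 CPM in KO (SD, n = 4 each), with a log2 fold change of 0.65 (SE 0.169, edgeR adjusted p = 0.226) and 0.62 without NLC 3. It was highest in KO 3. In the same list the inhibitor gene Cdkn2d had 0.14 (SE 0.0725). The cyclin D3 gene Ccnd3 had 0.20 (SE 0.0775) and the retinoblastoma gene Rb1 -0.19 (SE 0.0865). Of the transcription factors, E2f3 had -0.31 (SE 0.135) and Mybl2, which encodes B-MYB, an activator at CHR elements, -0.83 (SE 0.418), or -0.53 (SE 0.435) without NLC 3. Foxm1, which acts with it at mitotic promoters, was at 4.42 CPM in NLC 3 and at 1.16 to 2.16 CPM in the others.

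The remaining lists had medians near 0. For origin licensing and firing the median log2 fold change was -0.09, and the smallest p belonged to Mcm10 (-0.93, SE 0.446; -0.61, SE 0.486, without NLC 3), which loads the replication machinery, and the origin recognition gene Orc2 (-0.13, SE 0.0799). For polymerases and nucleotide enzymes it was -0.03, with Rrm1, the large ribonucleotide reductase subunit, at -0.21 (SE 0.0766) and the polymerase delta gene Pold1 at 0.24 (SE 0.137; 0.36, SE 0.118, without NLC 3). For the anaphase-promoting complex it was 0.0046, with the scaffold gene Anapc5 at 0.17 (SE 0.0675) and its activator Fzr1, also called CDH1, at 0.14 (SE 0.0629).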

How the data were processed

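Polyadenylated RNA of 8 left ventricles was sequenced from stranded libraries, per the labels' protocols. The deposited values are raw counts of reads for each gene, made by the authors with STAR and HTSeq on GRCm38, per the submitters' processing notes; DESeq2 is also named there. The sources used here state no versions, annotation release or strand setting. Multiply mapped reads (16.84% to 20.3% of all tallied), reads outside genes (3.07% to 4.08%) and ambiguous reads (1.26% to 1.38%) name no gene and were left out. Symbols of 55227 of 55487 identifiers came from GENCODE M21.

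Tests used edgeR 4.0.16 (R 4.3.3): filterByExpr by genotype (14695 genes; 14849 without NLC 3), TMM scaling and a quasi-likelihood test with sex as an additive term, Benjamini-Hochberg adjusted over all tested genes at 0.05. CPM used TMM-scaled totals, and log2 CPM a prior count of 2. Replicates within a group differed beyond sampling noise (chi-square per degree of freedom 15.2 to 41.4). Replicate numbers were checked for pairing: deviations of same-numbered libraries correlated at 0.25, 0.09, -0.21 and 0.09, so no block was used. The fits were tested on simulated counts. Alternatives were DESeq2 1.42.0, limma 3.58.1 voom, RLE scaling, no or a stricter filter (1 CPM in 4 libraries), no sex term, a replicate block and each library left out.

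The members, the 9 other lists, the 15 marker lists and the tests were chosen with earlier results of these data known. By rule, values in all libraries were given for members with an unadjusted p under 0.05, the 3 highest by RPKM, and Mki67, Top2a and Cdk1; for other lists, the 2 genes of smallest p; and the 4 genes most like the members, of which 1 is not reported here. Values by library of Ccne1, Bub1 and Hmmr, the values of Foxm1, Plk1 and E2f1, and the promoters printed were chosen after their values were seen.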

Additional observations from a re-analysis of the deposited data

Results flagged for a closer look

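A library was marked where its gap to the nearest of its group exceeded Dixon's 95% value for 4 samples. Each of the 36 genes was checked in both groups, 72 checks in all. With independent values chance would mark about 1 in 20, but these genes are correlated and were chosen with earlier results known. The marks are therefore a description and no test of NLC 3. In 12 of the checks a library stood apart, and in 9 of these it was NLC 3. The rule was not run on the other tested genes, so no share over all of them is given. The level in NLC 3 was 13.5 CPM for Mki67 (3.19 to 4.36 in the other NLC libraries), 7.52 CPM for Top2a (2.12 to 2.51), 4.93 CPM for Ccna2 (1.42 to 1.99) and 3.07 CPM for Cdk1 (0.934 to 1.18). It was 1.99 CPM for Birc5 (0.346 to 0.612), 4.15 CPM for Tpx2 (1.31 to 1.76), 3.91 CPM for Kif20a (1.51 to 1.80), 4.15 CPM for Kif23 (1.21 to 1.54) and 5.63 CPM for Prc1 (1.24 to 1.71). The other 3 were in KO: Ccnb2 at 0.820 CPM in KO 1 (0.413 to 0.456 in the other KO libraries), Hmmr at 0.450 CPM in KO 1 (0.138 to 0.176) and Ccne1 at 2.71 CPM in KO 4 (1.82 to 1.97).

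The mean centred log2 CPM over genes stood apart in NLC 3 for all 36 members (1.00, against -0.13 to 0.0038 in the other NLC libraries), for the 24 mitosis genes (1.31), for these without Cenpf (1.37) and for the 9 replication genes (0.41). In KO 3 it stood apart for the replication genes at -0.25, against -0.07 to -0.03 in the other KO libraries. The genes are correlated, so these are not separate observations.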

How the results depend on the processing

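For KO against NLC, edgeR called 15 genes and 0 of 34 members. DESeq2 called 150 genes and 1 member (Cenpf), no filter on low counts 621 genes and 6 members (Mki67, Top2a, Ccna2, Cenpf, Prc1 and Anln), no sex term 6 genes, and a replicate block 0 genes, with 0 members and a member median of -0.45; the animals share only a number. With NLC 3 left out as well, added after the data were seen, DESeq2 called 389 genes and 1 member (median -0.12) and no filter 1048 genes and 1 member (median -0.13). The cause of the larger counts without a filter was not tested. Without a filter Bub1 and Hmmr were fitted as well. The share of all fitted genes that were called is not reported here for any fit without a filter. The member counts of those fits therefore cannot be read against a background. With 1 library left out, the genes called ran from 0 (without NLC 1, NLC 2, KO 2 or KO 3) to 50 (without NLC 3), with 4 without KO 1 or KO 4, and the member median from -0.67 to -0.13, the last without NLC 3.

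For female against male, 44 genes and 0 members were called, with DESeq2 216 and 1, with no filter 742 and 1 (Cenpf in both), and 16 to 176 genes with 1 library left out. The interaction gave 0 genes, 15 by DESeq2, 243 with no filter (3 members: Mki67, Plk1 and Kif11), and 0 to 8 with 1 library left out.

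Of 34 members, 23 held their direction in every alternative that gave them a value: 15 alternatives for most, and 14 for 8 members (4 of the 23) that fell below the stricter filter. Apart from the fit without NLC 3, every alternative kept that library, so agreement among them says little about its weight. Some members held narrowly: without NLC 3, Mcm6 was at -0.0061 and Mcm7 at -0.010. The other 11 members changed direction without NLC 3, Mcm2 and E2f1 also without KO 4. Their log2 fold changes with 1 library left out ran from -0.70 to 0.31 for Ccnb1, -0.75 to 0.0776 for Cdk1, -1.24 to 0.0642 for Plk1, -0.75 to 0.0920 for Aurkb, -1.02 to 0.16 for Birc5, -0.93 to 0.0451 for Kif11, -0.61 to 0.18 for Kif23, -0.12 to 0.12 for Mcm2, -0.34 to 0.0465 for Mcm5, -0.0830 to 0.0156 for Pcna and -0.45 to 0.21 for E2f1. NLC 3 was highest in 32 members with TMM or RLE and 33 without scaling. Members under about 1 CPM rest on few reads, which limits their precision.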

Other observations

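KO 1, a male and the most deeply sequenced library, was the highest of the 7 libraries other than NLC 3 in 8 of the 36 members. This is close to the share of all tested genes with their highest value there, 22.8%, so it is not particular to the members. Plk1 stood at 1.59 CPM in KO 1 and at 0.281 to 0.623 CPM in the other KO libraries, close to its 1.72 CPM in NLC 3. E2f1 stood at 2.54 CPM in KO 1 and at 1.202 to 1.83 CPM in the other KO libraries.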
